A study of Mus musculus with 4 samples.

Results

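The cullin, Kelch and BTB domain genes are 5 families, and many of their products act in the ubiquitin system. Here they are the rows of the deposited table whose symbol begins with Cul, Klhl, Kbtbd, Btbd or Kctd followed by a digit. This choice used names only and no measured value. It found 85 genes of the 25965 in the table: 8 named Cul, 34 Klhl, 10 Kbtbd, 12 Btbd and 21 Kctd. Their messenger RNA was read in round spermatids, the haploid germ cells that follow meiosis, sorted by flow cytometry from testis of ICR mice, an outbred strain. The 2 knockout libraries are labelled Wfdc15a-/- and the 2 heterozygous libraries, which serve as controls, Wfdc15a+/-, and all 4 carry at least 1 altered allele of Wfdc15a, the gene of a small WAP domain protein. Wild-type controls, which the design also names, were not analysed here. The labels give neither the age of the mice nor the nature of the altered allele. They do not say whether libraries of one genotype came from separate animals, so p-values measure the spread between these libraries, which may be technical.

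Cullins are long scaffold proteins. They hold a RING protein and its charged ubiquitin-conjugating enzyme at one end and a substrate adaptor at the other, and they are switched on by the attachment of the small protein NEDD8. CUL3 takes BTB domain proteins as adaptors: the Klhl and most Kbtbd products join a BTB domain to a Kelch propeller that grips the substrate, while Btbd and Kctd products carry a BTB domain without that propeller, and several Kctd products also bind CUL3. In the testis the best known member is Klhl10, which pairs with CUL3 in spermatids and without which male mice are infertile.

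Promoter windows show how differently the members begin. They are given for Klhl10, the member with the highest level per length, for Klhl11, its neighbour on chromosome 11, for Klhl12, which was lower in knockout libraries without overlap, and for Kbtbd7, which was higher without overlap. Neither passed the test. Each window runs from 250 bases before to 50 bases after a RefSeq transcription start on the GRCm38.p6 build, written 5′ to 3′ on the strand of the gene. Capitals mark the cAMP response element half-site (TGACG, or CGTCA on the other strand) and the GC box (GGGCGG or CCGCCC).
Klhl10: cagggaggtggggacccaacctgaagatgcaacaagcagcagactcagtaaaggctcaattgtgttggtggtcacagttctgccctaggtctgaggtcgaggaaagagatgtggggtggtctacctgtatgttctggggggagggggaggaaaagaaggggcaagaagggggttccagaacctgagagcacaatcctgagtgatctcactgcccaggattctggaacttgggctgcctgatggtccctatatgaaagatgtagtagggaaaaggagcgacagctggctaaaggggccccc
Klhl11: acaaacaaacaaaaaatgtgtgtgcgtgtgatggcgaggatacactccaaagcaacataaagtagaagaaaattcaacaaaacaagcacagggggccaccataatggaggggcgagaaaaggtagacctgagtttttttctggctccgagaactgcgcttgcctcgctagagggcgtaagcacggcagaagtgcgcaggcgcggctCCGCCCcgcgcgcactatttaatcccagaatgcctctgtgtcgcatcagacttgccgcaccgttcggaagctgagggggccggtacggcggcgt
Klhl12: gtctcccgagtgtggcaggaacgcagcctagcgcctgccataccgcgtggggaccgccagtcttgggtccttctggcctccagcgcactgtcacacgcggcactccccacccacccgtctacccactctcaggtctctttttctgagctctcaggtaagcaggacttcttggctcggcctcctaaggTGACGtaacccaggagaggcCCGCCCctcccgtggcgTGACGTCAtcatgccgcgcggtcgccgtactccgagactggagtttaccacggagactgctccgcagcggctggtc
Kbtbd7: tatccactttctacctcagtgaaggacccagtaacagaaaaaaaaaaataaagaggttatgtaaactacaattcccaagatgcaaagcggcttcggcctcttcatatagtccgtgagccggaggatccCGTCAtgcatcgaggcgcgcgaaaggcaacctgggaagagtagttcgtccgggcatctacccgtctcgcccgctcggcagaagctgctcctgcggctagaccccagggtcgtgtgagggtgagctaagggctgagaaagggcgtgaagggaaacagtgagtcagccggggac
These lie at chr11:100441674-100441973 on the plus strand, chr11:100472733-100473032 on the minus strand, chr1:134455281-134455580 on the plus strand and chr14:79426261-79426560 on the plus strand. The Klhl10 window held 2 CpG dinucleotides and neither motif. Klhl11 held 23 CpG and 1 GC box, Kbtbd7 19 CpG and 1 half-site, and Klhl12 25 CpG, 1 GC box and 3 half-sites. Of the half-sites of Klhl12, 2 overlap within the full palindrome TGACGTCA, which the activator CREM of spermatids is known to bind. RefSeq windows were found for 68 of the 85 members, 94 windows in all. The GC box was in 66% of them, against 35.7% of all 32851 windows of the same length, the half-site in 27.7% against 20.8%, and the full palindrome in 2.13% against 1.79%, in Klhl12 and Kctd8. The median number of CpG was 19.5 in member windows and 7 in all windows. A match of letters describes the window and does not show that a protein binds there.

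Values are RPM, reads scaled to a common library total without regard to gene length, and comparisons between genes use RPM per kb of merged GENCODE M21 exons. The libraries differed 5.86-fold in depth, with 21160061 and 11268909 reads in knockout 1 and 2 and 5774112 and 33853604 reads in heterozygous 1 and 2. Wfdc15a itself was read at 82.6 and 59.5 RPM in the knockout libraries, against 121 and 85.2 RPM in the heterozygous ones (log2 difference -0.53, SE 0.29, limma adjusted p = 0.647). The table has 1 value a gene, which does not check a deletion within it, so the genotype is used as labelled. Defining round spermatid genes were abundant everywhere, with 10 of 10 read. They summed to 4666 and 4692 RPM in knockout libraries and to 4350 and 4322 RPM in heterozygous ones. Markers of other cells were not even. The 15 macrophage genes read summed to 371 and 126 RPM in knockout libraries, against 26.3 RPM in each heterozygous library, where Tyrobp had no reads in either. The 7 Leydig cell genes summed to 35.9 and 18.3 RPM in knockout and 6.41 and 3.16 RPM in heterozygous libraries. The 8 spermatogonial genes summed to 87.0 and 75.9 RPM in knockout and 57.8 and 50.9 RPM in heterozygous libraries. The 9 Sertoli cell genes summed to 53.3 RPM in each knockout library and 21.0 and 42.5 RPM in the heterozygous ones. The largest term of that sum was Clu, at 37.2 and 29.6 RPM in knockout and 10.7 and 25.6 RPM in heterozygous libraries. Of the 7 Sertoli cell genes tested, 4 had a log2 difference above 0 and 3 below. The 8 peritubular and stromal genes summed to 113 and 89.9 RPM in knockout and 107 and 11.6 RPM in heterozygous libraries, and the 4 endothelial and red blood cell genes to 4.49 and 8.43 RPM in knockout and 5.89 and 8.57 RPM in heterozygous libraries, with no reads of Hba-a1 in any library.

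Most members were read, and a few carried much of the signal. Of the 85, 66 had reads in all 4 libraries, 17 in some and 2, Klhl33 and Klhl34, in none. The mean over the libraries was 100 RPM or more for 11 members, 10 to 100 RPM for 22, 1 to 10 RPM for 28 and under 1 RPM for 24. The members summed to 3960 and 4289 RPM in knockout libraries and to 4087 and 4267 RPM in heterozygous ones, and Kctd19, Btbd16, Klhl10 and Btbd1 made up 48.5% of the mean sum. Per length the same 4 genes led. Klhl10 stood at 232.9 ± 19.3 RPM per kb in knockout and 220.5 ± 75.9 in heterozygous libraries (SD, n = 2 each). Kctd19 stood at 227 ± 9.29 RPM per kb in knockout and 188 ± 3.98 in heterozygous libraries, Btbd16 at 130.03 ± 11.9 in knockout and 139.7 ± 19.0 in heterozygous libraries, and Btbd1 at 66.2 ± 33.3 in knockout and 158 ± 6.52 in heterozygous libraries. Klhl10 and Kctd19 differed by less than the spread of Klhl10 between the heterozygous libraries. The next members per length were Btbd10 at a mean of 52.6 RPM per kb over the 4 libraries, Cul1 at 42.3, Kbtbd4 at 31.2, Cul3 at 28.3 and Cul4b at 28.1. The median tested member stood at 2.53 RPM per kb and the median tested gene at 3.55.

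**Figure D1:**
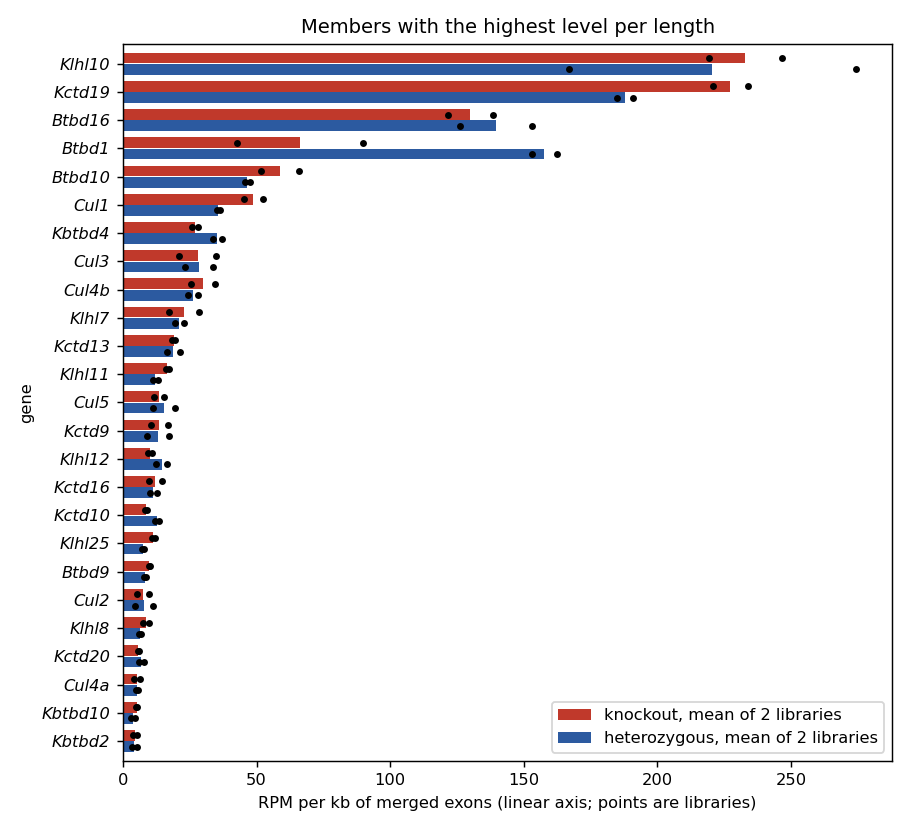
Level per length of the 25 members with the highest mean, in RPM per kb of merged exons on a linear axis; bars are means of the 2 knockout and the 2 heterozygous libraries and points the single libraries. Klhl10, Kctd19, Btbd16 and Btbd1 lead, and the groups do not overlap for Kctd19, at 227 in knockout and 188 RPM per kb in heterozygous libraries, or for Btbd1, at 66.2 in knockout and 158 in heterozygous libraries.

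The comparison asked which of these genes differ between knockout and heterozygous spermatids. Genes that reached 1 RPM in 2 or more libraries were tested with limma on the log2 values, with Benjamini-Hochberg adjustment over all 15888 genes tested. This kept 62 members and left out 23, none of which exceeded 1.75 RPM in any library. No member passed an adjusted p of 0.05, as for all genes (0% called), and the smallest adjusted p of a member was 0.327. At an unadjusted p under 0.05, 4 of the 62 members were higher, against 6.21% of all tested genes, and 2 lower, against 1.87%. Both directions together made 9.68% of the members and 8.08% of all tested genes. Weights from voom on the recovered reads gave 0 passing members and 10 at an unadjusted p under 0.05 (16.1%), against 12.5% of all tested genes. Both knockout libraries lay above both heterozygous libraries for 23 of the 62 members (37.1%), against 23.5% of all tested genes, and below both for 10 (16.1%), against 15%. The groups overlapped for 29. The median log2 difference was 0.19 over the members and 0.07 over all tested genes. The median absolute log2 difference of a member was 0.37 between the knockout libraries, 0.36 between the heterozygous libraries and 0.40 between the genotype means. For all tested genes these medians were 0.36, 0.49 and 0.34. A difference between means of 2 libraries is expected to be smaller than one between single libraries, so these values are not a test of genotype. Messenger RNA of sorted cells in bulk cannot tell fewer cells of a type from less RNA per cell.

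Members were higher without overlap in a larger share than all genes at both low and high levels. At high levels they were also lower in a larger share. Of the 29 tested members averaging under 10 RPM, 14 were higher without overlap (48.3%) and 3 lower (10.3%). The shares of all tested genes of that level were 30.5% and 11.5%. The median log2 difference of these members was 0.45, and that of all such genes 0.32. Of the 33 members at 10 RPM or more, 9 were higher (27.3%) and 7 lower (21.2%). The shares of all genes at that level were 17.6% and 18%. The median log2 difference was 0.12 for these members and -0.01 for all such genes. Summed over the 52 members under 10 RPM, tested or not, the level was 170.1 and 171.7 RPM in knockout libraries and 135.8 and 110.6 RPM in heterozygous ones. The summed macrophage, Leydig cell, Sertoli cell and spermatogonial markers were higher in both knockout libraries. So was the sum of the 10 round spermatid markers, with a median log2 difference of 0.18. Of these 10, 4 were higher without overlap (40%, against 23.5% of all tested genes) and 0 lower. Of the 8 genes listed as elongating spermatid markers, 5 were lower in knockout libraries without overlap (62.5%, against 15% of all tested genes). They were read in sorted round spermatids, so their levels do not count elongating cells. Each of the 5 was at an unadjusted p under 0.05 but none at an adjusted p of 0.05 in limma. The median log2 difference over the 8 was -0.77. The part of cell type or stage in the differences of the members was not tested.

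**Figure D2:**
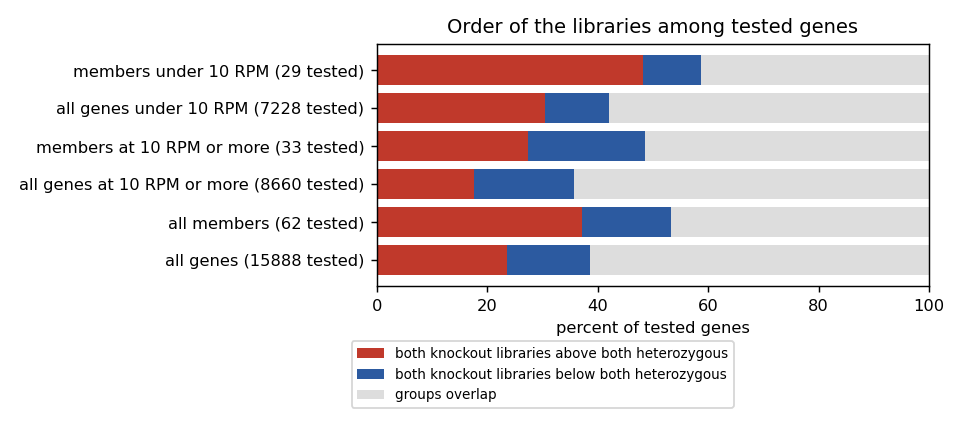
Share of tested genes, in percent, whose 2 knockout libraries both lay above (red) or both below (blue) the 2 heterozygous libraries, or overlapped (grey), for members and all genes by mean level. Among genes under 10 RPM, 48.3% of the members and 30.5% of all genes were higher without overlap.

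**Figure D3:**
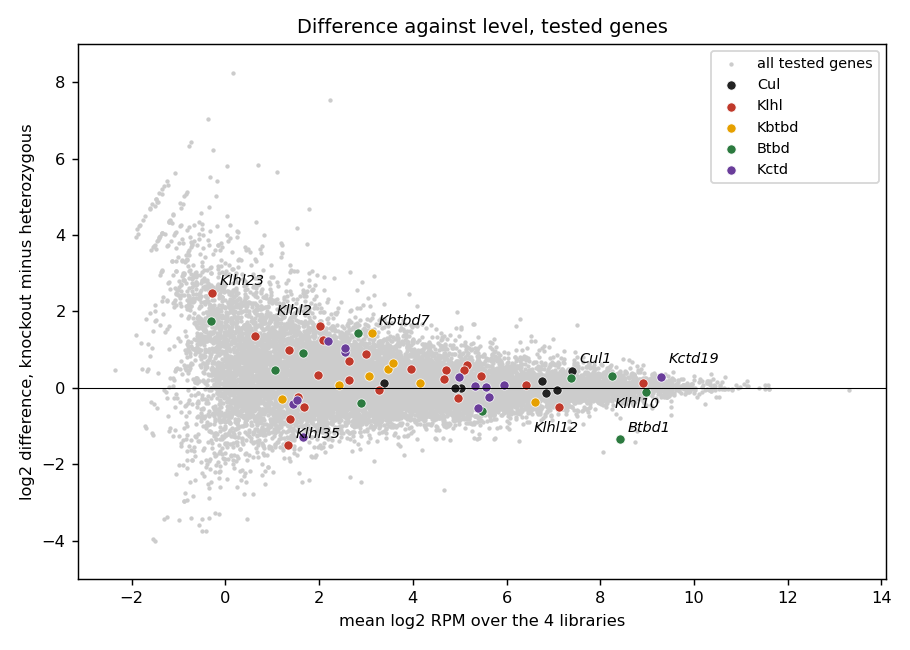
Log2 difference (knockout minus heterozygous) against mean log2 RPM over the 4 libraries, with all tested genes in grey and the 62 tested members in the colour of their family. Differences of members narrow with level, and Btbd1 at -1.35 stands below the other abundant members.

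Among the cullins, Cul1 alone had groups that did not overlap, and the ranges of the other 6 tested cullins overlapped. Cul1, the scaffold that takes F-box proteins through SKP1, was at 183 and 212 RPM in knockout libraries and at 142 and 146 RPM in heterozygous ones, 1.37-fold higher (log2 difference 0.45, SE 0.23, adjusted p = 0.628). Both knockout values lay above both heterozygous values. Cul3, the scaffold for BTB proteins, was at 102.5 and 170.1 RPM in knockout libraries and at 164 and 114 RPM in heterozygous ones (log2 difference -0.05, 95% confidence interval -0.71 to 0.61). The 2 genotypes covered nearly the same range.

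Cul5, which with elongins takes SOCS box proteins, was at 96.1 and 124.5 RPM in knockout libraries and at 158 and 91.3 RPM in heterozygous ones. Cul2, the scaffold of the von Hippel-Lindau complex, was at 22.3 and 40.7 RPM in knockout libraries and at 46.9 and 19.2 RPM in heterozygous ones. The close paralogues Cul4a and Cul4b, scaffolds of DDB1, were unequal in level. Cul4b, on the X chromosome, stood at a mean of 28.1 RPM per kb and Cul4a, on chromosome 8, at 5.18 RPM per kb. In RPM, Cul4b was at 99.2 and 133 in knockout libraries and 109 and 93.9 in heterozygous ones, and Cul4a at 26.7 and 40.2 in knockout libraries and 35.3 and 30.6 in heterozygous ones. Cul9, the long cytoplasmic cullin that binds p53, was at 13.0 and 9.23 RPM in knockout libraries and 10.2 and 9.78 RPM in heterozygous ones. Cul7 was nearly unread, with 37 and 2 reads in knockout libraries and 0 and 16 reads in heterozygous ones, and was not tested.

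Cul2, Cul3, Cul4a, Cul4b and Cul5 shared one order of libraries. In each of these 5 of the 7 tested cullins, knockout 2 lay above knockout 1 and heterozygous 1 above heterozygous 2. This order held for 24 of the 62 tested members and for 29.6% of all tested genes, and the opposite order for 0 cullins and 28.5% of all genes. Knockout 2 and heterozygous 1 are also the shallower library of each genotype. The 7 spermatocyte markers summed to 241 and 390.0 RPM in knockout 1 and 2 and to 362 and 199.6 RPM in heterozygous 1 and 2, with 6 of them in the order of the cullins. The 8 genes listed as elongating spermatid markers were all in the opposite order. They summed to 3439.5 and 2788.5 RPM in knockout 1 and 2 and to 3289.7 and 6026 RPM in heterozygous 1 and 2. Oaz3 is the largest term of that sum. The part of depth or of cell stage in the order of the cullins was not tested.

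**Figure D4:**
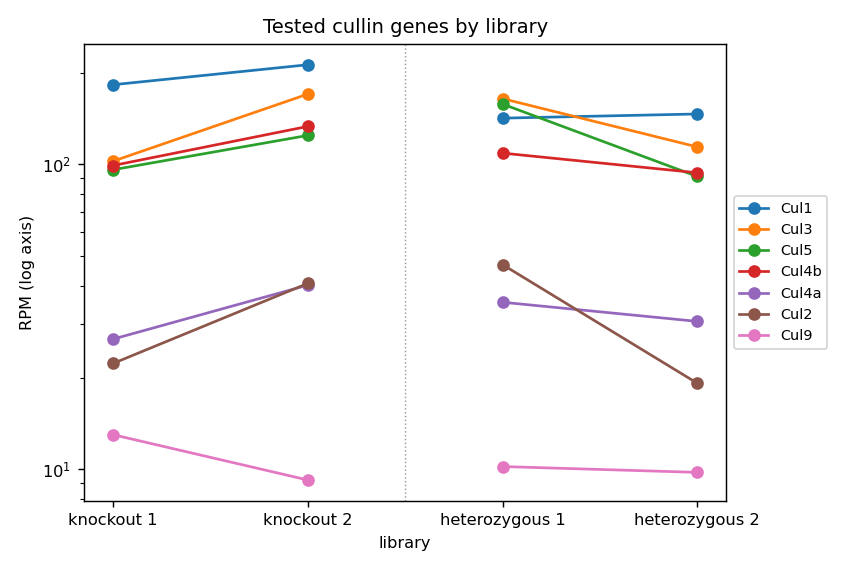
Level of the 7 tested cullin genes in RPM (log axis) in knockout 1 and 2 and heterozygous 1 and 2; lines join libraries of one genotype to guide the eye. Cul1 is higher in both knockout libraries, and Cul2, Cul3, Cul4a, Cul4b and Cul5 are highest in knockout 2 and heterozygous 1 within their genotype.

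The Kelch genes named Klhl held the member with the highest level per length and many low ones. Of 34, 24 were tested, with a median log2 difference of 0.33. Without overlap, 10 were higher (41.7%) and 3 lower (12.5%), against 23.5% and 15% of all tested genes. Klhl10 was at 533 and 474 RPM in knockout libraries and at 361 and 593 RPM in heterozygous ones (log2 difference 0.12, 95% confidence interval -0.43 to 0.67, adjusted p = 0.932). Heterozygous 1 was lowest and heterozygous 2 highest, with both knockout libraries between them. Without heterozygous 1 the log2 difference was -0.24. Klhl11 ends 5591 bases beyond Klhl10 on the opposite strand. It was at 38.5 and 41.4 RPM in knockout libraries, both above the 27.0 and 31.2 RPM of the heterozygous ones (log2 difference 0.46, SE 0.30, adjusted p = 0.713). Per length it stood at 14.4 RPM per kb, against 227 for Klhl10.

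Klhl12, whose product directs CUL3 to the COPII coat protein SEC31, was at 108 and 126 RPM in knockout libraries and at 143 and 189 RPM in heterozygous ones, 1.42-fold lower (log2 difference -0.50, SE 0.25, adjusted p = 0.628). Its promoter is the one of the 4 shown that holds the full palindrome, and those 4 were picked by hand, not by a rule. Kctd8, the other member with the palindrome, was also lower without overlap. It was at 2.36 and 2.31 RPM in knockout libraries and 3.12 and 3.13 RPM in heterozygous ones (log2 difference -0.42, limma adjusted p = 0.901). Klhl35 and Btbd7, lower without overlap at a smaller limma p than Klhl12, had windows without the palindrome. So did Kctd10, Kbtbd4, Klhl28, Btbd2 and Kctd20, which were lower without overlap too, and Btbd1 had no window. A link between the palindrome and the level was not tested. Klhl7, mutated in human retinal degeneration, was at 68.8 and 113 RPM in knockout libraries and at 89.9 and 76.9 RPM in heterozygous ones, so the groups overlapped. Klhl25, whose product targets the translation repressor 4E-BP1, was at 46.3 and 42.0 RPM in knockout libraries and 27.4 and 31.1 RPM in heterozygous ones (log2 difference 0.59, SE 0.29, adjusted p = 0.628).

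At lower levels, Klhl2, an actin-binding Kelch gene whose product also targets WNK kinases, was at 6.81 and 7.37 RPM in knockout libraries and 2.60 and 2.07 RPM in heterozygous ones. This rests on 144 and 83 reads in knockout libraries and 15 and 70 reads in heterozygous ones, and the ratio of means was 3.04 (log2 difference 1.61, SE 0.53, adjusted p = 0.544). Klhl23 had 1.94 and 1.95 RPM in knockout libraries, against no reads in heterozygous 1 and 0.768 RPM in heterozygous 2 (adjusted p = 0.628). The shallow depth of heterozygous 1 allows up to 0.520 RPM at a count of 0. On the lower side, Klhl35 was at 1.28 and 1.77 RPM in knockout libraries and 5.37 and 3.37 RPM in heterozygous ones, from 27 and 20 reads in knockout and 31 and 114 reads in heterozygous libraries (log2 difference -1.50, SE 0.66, adjusted p = 0.609).

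The Kbtbd genes also encode BTB-Kelch adaptors. Of 10, 8 were tested. Without overlap, 3 were higher (37.5%) and 1 lower (12.5%), against 23.5% and 15% of all tested genes. Kbtbd7, a gene of 1 exon whose product acts with KBTBD6 on the Rac activator TIAM1 in human cells, was at 15.5 and 13.2 RPM in knockout libraries and 5.37 and 5.17 RPM in heterozygous ones. The values within a genotype were close, from 329 and 149 reads in knockout and 31 and 175 reads in heterozygous libraries. The ratio of means was 2.73 (log2 difference 1.44, SE 0.41, 95% confidence interval 0.55 to 2.34), with an unadjusted rank of 163 among all tested genes by p and an adjusted p of 0.453 in limma. Kbtbd4, the most abundant of the family per length, was at 88.0 and 81.7 RPM in knockout libraries and 105 and 116 RPM in heterozygous ones (log2 difference -0.38, SE 0.24, adjusted p = 0.709). It overlaps Ndufs3 and Ptpmt1 on the other strand, and since the protocol does not keep strand their reads may be shared.

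Kbtbd2, whose product limits the regulatory subunit of PI3 kinase, was at 15.9 and 21.8 RPM in knockout libraries and 22.0 and 13.2 RPM in heterozygous ones. Kbtbd3 was at 9.45 and 9.05 RPM in knockout and 6.93 and 8.03 RPM in heterozygous libraries. Kbtbd10 and Kbtbd5 are older symbols of Klhl41 and Klhl40, Kelch genes known from skeletal muscle. Kbtbd10 was at 13.7 and 12.6 RPM in knockout libraries and 7.45 and 11.8 RPM in heterozygous ones, while Kbtbd5 did not exceed 1.04 RPM.

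Btbd genes gave the largest difference of an abundant member. Btbd1, whose product binds topoisomerase I, lies on the minus strand of chromosome 7 from 81792075 to 81829431 of mm10. It was at 148 and 311 RPM in knockout libraries and at 532 and 564 RPM in heterozygous ones. Both knockout values lay below both heterozygous values, and knockout 1 lay well below knockout 2. The mean was 229.6 ± 115 RPM in knockout and 548 ± 22.6 RPM in heterozygous libraries (SD, n = 2 each), 2.38-fold lower (log2 difference -1.35, SE 0.31, 95% confidence interval -2.03 to -0.67, limma adjusted p = 0.327). Its p ranked 50 of 15888. Among tested genes averaging 100 RPM or more it had the third lowest difference of 2440, a rank worked out after its values were seen. The 2 genes below it, Tnp2 and Prm1, which encode a transition protein and a protamine, are on the list of elongating spermatid markers. Of the 8 genes on that list, 6 had a log2 difference below 0 and 2 above. Tnp2 was at 173 and 127 RPM in knockout libraries and at 393 and 582 RPM in heterozygous ones (log2 difference -1.69, limma adjusted p = 0.222). Prm1 was at 308 and 223 RPM in knockout libraries and at 529 and 931 RPM in heterozygous ones (log2 difference -1.42, limma adjusted p = 0.295). Knockout 2 was the lower knockout library for both markers and the higher one for Btbd1. The part of cell stage in the difference of Btbd1 was not tested. Without knockout 1 the log2 difference was -0.81 (limma adjusted p = 0.999), and Btbd1 passed without knockout 2 (-1.89, adjusted p = 0.0266), heterozygous 1 (-1.39, adjusted p = 0.00287) or heterozygous 2 (-1.31, adjusted p = 0.0113). A fit that lacks 1 library takes its spread from the other genotype alone. Btbd1 also passed with no filter on low values (adjusted p = 2.82e-05), a fit that takes in genes without reads.

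Its close paralogue Btbd2 was low, at 7.14 and 5.95 RPM in knockout libraries and 8.49 and 8.54 RPM in heterozygous ones (log2 difference -0.39, SE 0.43, adjusted p = 0.857). Per length Btbd1 exceeded it in every library, with means of 112 and 2.1 RPM per kb. Btbd10, a regulator of AKT phosphorylation, was at 299 and 381 RPM in knockout libraries, above the 266 and 275 RPM of the heterozygous ones (log2 difference 0.32, SE 0.22, adjusted p = 0.724). Btbd9, linked in humans to restless legs syndrome, was at 186 and 175 RPM in knockout libraries and 158 and 146 RPM in heterozygous ones (log2 difference 0.24, SE 0.22). Btbd16 was at 515 and 453 RPM in knockout libraries and 469.9 and 569.9 RPM in heterozygous ones, and the groups overlapped. It shares its position with Fgfr2 on the other strand, listed at a mean of 1322 RPM, and reads of the pair may be shared.

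Btbd7, a gene of epithelial branching, was at 30.9 and 42.2 RPM in knockout libraries and 61.5 and 49.7 RPM in heterozygous ones (log2 difference -0.62, SE 0.30, adjusted p = 0.628). Btbd8 was at 9.22 and 15.1 RPM in knockout libraries and 5.54 and 3.4 RPM in heterozygous ones, a ratio of means of 2.72 (log2 difference 1.44, SE 0.48, adjusted p = 0.544). Of the 10 tested Btbd genes, 5 were higher (50%) and 3 lower (30%) without overlap, against 23.5% and 15% of all tested genes. Btbd18, a regulator of piRNA genes in mouse testis, is not among the 12 Btbd symbols of the deposited table, so it was not analysed here.

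The Kctd genes, whose products carry a BTB domain of the potassium channel type, were led by Kctd19. Its product works with ZFP541 in meiotic chromatin of mouse spermatocytes. It was at 713 and 673 RPM in knockout libraries and 581 and 564 RPM in heterozygous ones, 1.21-fold higher (log2 difference 0.27, 95% confidence interval -0.14 to 0.69, adjusted p = 0.727). Both knockout libraries lay above both heterozygous ones, by more than either pair differed within itself. It was the member with the highest mean RPM. Kctd13 and Kctd10, adaptors that direct CUL3 to RhoA, are close in role. Kctd13 was at 45.8 and 48.7 RPM in knockout libraries and 41.0 and 53.0 RPM in heterozygous ones, so the groups overlapped. It shares its position with RP23-142A14.3 on the same strand, listed at a mean of 26.95 RPM, and with Asphd1 on the other strand. Kctd10 was at 34.0 and 36.0 RPM in knockout libraries and 53.9 and 47.8 RPM in heterozygous ones, 1.45-fold lower (log2 difference -0.54, SE 0.28, adjusted p = 0.641). It shares its position with Myo1h and Gm13789 on the other strand. The difference between Kctd13 and Kctd10 was not tested.

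Kctd9 was at 49.3 and 80.5 RPM in knockout libraries and 81.6 and 43.3 RPM in heterozygous ones, in the same order of libraries as Cul3. Kctd16, a subunit of GABA-B receptors in neurons, was at 50.4 and 33.4 RPM in knockout and 35.0 and 44.3 RPM in heterozygous libraries, and Kctd20 at 44.6 and 46.5 RPM in knockout and 47.6 and 60.6 RPM in heterozygous libraries. Among the low members, Kctd5, whose product binds G protein beta-gamma subunits, was at 7.75 and 6.30 RPM in knockout libraries and 4.33 and 2.04 RPM in heterozygous ones (log2 difference 1.23, SE 0.56, adjusted p = 0.616). Kctd7, mutated in human progressive myoclonic epilepsy, was at 10.8 and 6.48 RPM in knockout libraries and 4.16 and 3.99 RPM in heterozygous ones. Kctd3 was at 7.51 and 8.87 RPM in knockout and 4.85 and 3.69 RPM in heterozygous libraries. Of the 13 tested Kctd genes, 4 were higher (30.8%) and 3 lower (23.1%) without overlap, against 23.5% and 15% of all tested genes. The 8 untested ones include Kctd11, Kctd21 and Kctd6, adaptors known from Hedgehog signalling, and none of these 3 exceeded 1.28 RPM.

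**Figure D5:**
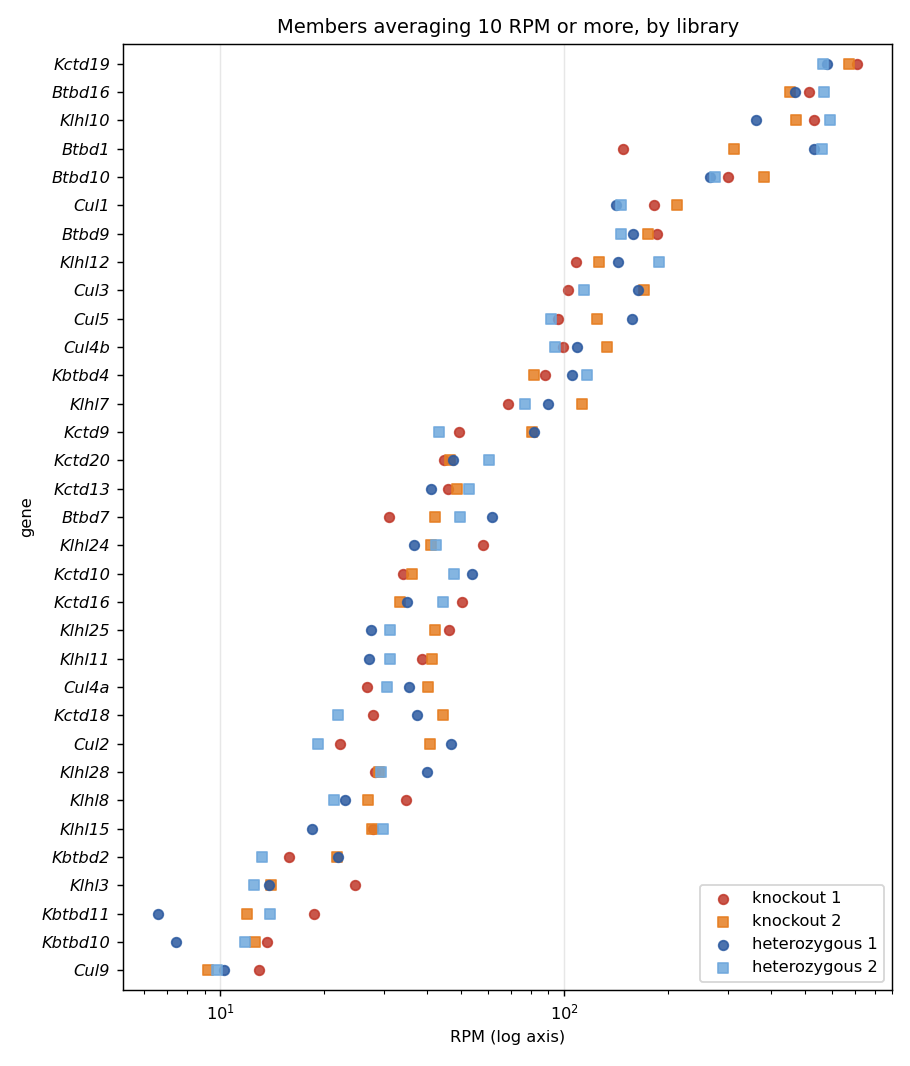
RPM (log axis) of the 33 members averaging 10 RPM or more in each library, ordered by mean, with knockout libraries in red and orange and heterozygous libraries in dark and light blue. Knockout 1 and 2 lie left of both heterozygous libraries for Btbd1, at 148 and 311 RPM in knockout and 532 and 564 RPM in heterozygous libraries, and right of them for Kctd19 and Cul1.

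The other parts of the cullin machinery showed 0 passing genes in limma. Most were read, while Klhdc7a, Klhdc7b and Dcaf12l2 had no reads in any library. Of the 11 core and linker genes, 1 was higher (9.09%) and 3 lower (27.3%) without overlap, against 23.5% and 15% of all tested genes. Their median log2 difference was -0.23, and 0 were at an unadjusted p under 0.05, against 8.08% of all tested genes. Tceb1 and Tceb2, the elongins that link Cul2 and Cul5 to their receptors, were the 2 with the smallest p. Tceb1 was at 72.8 and 77.0 RPM in knockout libraries and 125 and 95.3 RPM in heterozygous ones, and Tceb2 at 163 and 89.0 RPM in knockout and 166 and 170.3 RPM in heterozygous libraries. Skp1a, the linker of Cul1, was at 334 and 359 RPM in knockout libraries and 513 and 350.1 RPM in heterozygous ones. Cand2, an exchange factor of adaptors, was at 4.06 and 5.50 RPM in knockout and 2.94 and 3.25 RPM in heterozygous libraries.

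Among the 11 genes of NEDD8 attachment, 1 was higher (9.09%) and 2 lower (18.2%) without overlap, against 23.5% and 15% of all tested genes. Ube2m, the NEDD8-conjugating enzyme of most cullins, was at 9.92 and 11.7 RPM in knockout libraries and 24.1 and 22.9 RPM in heterozygous ones (log2 difference -1.12, limma adjusted p = 0.512). Nae1, a subunit of the enzyme that charges it, was at 25 and 17.2 RPM in knockout libraries and 14.4 and 5.91 RPM in heterozygous ones (log2 difference 1.17, limma adjusted p = 0.591). Dcun1d5, which promotes the transfer, was at 71.7 and 65.0 RPM in knockout and 101 and 81.3 RPM in heterozygous libraries, and Nedd8 at 28.2 and 15.8 RPM in knockout and 36.4 and 27.0 RPM in heterozygous libraries. The COP9 signalosome, which removes NEDD8, varied little: 9 of its genes were tested, and the log2 differences ran from -0.29 to 0.18. Without overlap, 1 was higher (11.1%) and 1 lower (11.1%), against 23.5% and 15% of all tested genes. Its genes with the smallest p included Cops7a, at 168 and 156 RPM in knockout and 181 and 191 RPM in heterozygous libraries. Cops7b was at 79.8 and 45.6 RPM in knockout and 61.1 and 88.8 RPM in heterozygous libraries, Cops8 at 30.6 and 24.2 RPM in knockout and 24.1 and 23.9 RPM in heterozygous libraries, and Cops2 at 113 and 188 RPM in knockout and 144 and 123 RPM in heterozygous libraries.

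Of 17 tested BTB and Kelch adaptors with other symbols, 2 were higher (11.8%) and 3 lower (17.6%) without overlap. The shares of all tested genes were 23.5% and 15%. Klhdc1 and Klhdc10, Kelch receptors of cullins other than CUL3, were lower without overlap, Klhdc1 at 25.8 and 48.3 RPM in knockout and 67.5 and 62.3 RPM in heterozygous libraries and Klhdc10 at 58.6 and 51.8 RPM in knockout and 93.5 and 74.0 RPM in heterozygous libraries. Spopl, a CUL3 adaptor without a Kelch propeller, was at 24.1 and 30.8 RPM in knockout libraries and 43.5 and 38.4 RPM in heterozygous ones. Of 17 tested CUL4 receptors, 5 were higher (29.4%) and 1 lower (5.88%) without overlap, against 23.5% and 15% of all tested genes. Their median log2 difference was 0.32. Dcaf4 was at 4.4 and 4.35 RPM in knockout libraries and 1.39 and 0.945 RPM in heterozygous ones, Dcaf11 at 33.6 and 24.0 RPM in knockout and 17.8 and 14.5 RPM in heterozygous libraries, and Dcaf15, the receptor of sulfonamide degraders in human cells, at 24.0 and 20.2 RPM in knockout and 11.6 and 16.1 RPM in heterozygous libraries. Dcaf12l1 was at 1.42 and 4.79 RPM in knockout libraries and at 0 and 1.42 RPM in heterozygous ones.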

How the data were processed

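Smart-seq2 libraries (15 cycles of PCR, Nextera XT, keeping neither strand nor molecular identifiers) were made from sorted round spermatids, per the labels' protocols. The submitters' processing notes list HISAT2 2.1.0, Trim Galore 0.6.6, FastQC 0.11.8 and mm10. The tool that assigned reads to genes was not given in the sources used. The authors deposited log2 RPM values, with no adjustment for gene length. With a library's lowest value set to 0.9 reads, 99.7% to 100.0% of values above it were whole reads (tolerance 0.01). This gave the totals and reads printed, and genes at the lowest value are given as 0. A count of 0 allows up to 3 reads, and this floor covers counting error only.

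Sample titles gave the groups and replicate numbers. Genes reaching 1 RPM in 2 or more libraries were compared with limma 3.58.1 (R 4.3.3) on the deposited log2 values, as knockout minus heterozygous, in a two-sided moderated test with a variance trend. Every adjusted p is limma's, with Benjamini-Hochberg adjustment over all genes tested. Folds are ratios of mean RPM. An exact permutation test of 2 against 2 libraries cannot go below p = 0.333 (two-sided). Exon lengths came from GENCODE M21, matched by symbol for 82 members, by an older symbol for 2 and not for Klhl17. The named genes are Wfdc15a, every cullin, the 4 members of each other family with the highest level per length, the 8 non-overlapping members per direction with the smallest p, members known in male germ cells, and up to 4 genes of each partner list with the smallest p, of which 1 is not reported here. Other genes named singly were chosen after their values were seen. Members and lists were chosen with earlier results of these data known. The fit was tested on simulated data. It recovered 47.2% of genes changed by a log2 of 1 and 100% of those changed by 2 or 3. The simulated spread was set in advance and not taken from these libraries, so these shares do not apply to them. Alternatives changed the scaling, the value of genes without reads, the filter, the moderation, the threshold, the libraries used, the pairing and the test. Python 3.11.15, pandas 2.3.3, numpy 2.4.6 and matplotlib 3.10.9 were used.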

Additional observations from a re-analysis of the deposited data

How the results depend on the processing

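No member passed in 9 of the 14 alternatives, and the median log2 difference of the members lay between 0.10, under quantile normalization, and 0.28, without knockout 1, over the 13 that recompute it. With log2(RPM + 1) 1 gene of all passed and no member. Without a filter on low values 180 genes passed, 1 of them a member, Btbd1. Leaving out 1 library at a time gave 0 to 558 passing genes, 0 to 2 passing members, 29 to 34 members higher without overlap (46.8% to 54.8%, against 34.9% to 43.2% of all genes) and 14 to 21 lower (22.6% to 33.9%, against 26.2% to 36.2%). The non-overlap counts grow there by construction, since fewer libraries are compared. The 2 members, without heterozygous 1, were Btbd1 and Klhl18, and Klhl18 passed in no other alternative (log2 difference 2.23, limma adjusted p = 0.0470). The replicate block, with the number in the titles as a block, gave 66 passing genes and 1 passing member, Btbd1 (limma adjusted p = 0.00603). Libraries with one number share only that number: their deviations correlated at -0.0761, over 1 independent pair. Where counts moved otherwise, the cause was not tested. Quantile normalization gave 18 members higher and 13 lower without overlap, against 23 and 10 in the deposited scaling, and 18.7% of all genes higher and 19.3% lower, against 23.5% and 15%. Of the 29 members whose groups overlapped, 23 took the opposite sign under at least 1 alternative. With 2 libraries a group and heterozygous 1 at 5774112 reads, differences of members under 10 RPM rest on few reads.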

Other observations

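Members on the X chromosome, which is silenced in meiosis and only partly read again in spermatids, split into read and nearly unread genes. Of the 6, Cul4b and Klhl15 were tested. Klhl15, whose product directs CUL3 to a regulatory subunit of protein phosphatase 2A, was at 27.7 and 27.7 RPM in knockout libraries and at 18.5 and 29.7 RPM in heterozygous ones, with overlap (log2 difference 0.24, limma adjusted p = 0.895). Klhl4, Klhl13 and Kctd12b were below the filter, Klhl4 at up to 1.0 RPM, Klhl13 at up to 0.803 RPM and Kctd12b at up to 0.177 RPM, and Klhl34 had no reads.

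Further Kelch members of middle level, named after their values were seen, showed both directions. Klhl3, whose product targets WNK kinases in kidney, was at 24.7 and 14.0 RPM in knockout libraries and 13.9 and 12.5 RPM in heterozygous ones, the knockout values lying above without overlap (log2 difference 0.50, limma adjusted p = 0.772). Klhl8 was at 34.6 and 26.9 RPM in knockout libraries and 23.0 and 21.4 RPM in heterozygous ones. Klhl28 was at 28.1 and 29.0 RPM in knockout libraries and 39.8 and 29.3 RPM in heterozygous ones, below without overlap by a narrow margin. Klhl24, mutated in human skin fragility, was at 58.2 and 40.9 RPM in knockout libraries and 36.5 and 42.5 RPM in heterozygous ones, with overlap. Klhl9 and Klhl13 are close paralogues whose products act with CUL3 in mitosis. Klhl9 was at 6.10 and 10.3 RPM in knockout libraries and 8.14 and 2.87 RPM in heterozygous ones, in the order of libraries that the cullins showed, while Klhl13 was nearly unread.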
